A study of Danio rerio with 24 samples.

Results

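Cytochrome P450 monooxygenases, flavin monooxygenases, aldehyde dehydrogenases, sulfotransferases and UDP-glucuronosyltransferases were followed in the regenerating caudal fin of zebrafish (Danio rerio). Genes were chosen by symbol, those that begin with cyp and a digit or with ugt, sult, aldh or fmo, without the retinoic acid and cholesterol genes cyp26a1, cyp51 and aldh1a2. The arrays carried 67 such genes on probe sets with 1 symbol, 46 of them cyp, 11 aldh, 8 sult, 1 ugt and 1 fmo. Of these, 31 had a log2 signal of at least 4 on at least 3 of 24 arrays, out of 6451 genes that passed that filter. They were 15 cyp, 9 aldh and 5 sult genes, ugt2a1 and fmo5, each represented by its probe set with the highest mean. Only the sult and ugt genes among them encode conjugation enzymes, and several aldh genes serve amino acid or carnitine metabolism and not foreign compounds.

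Total RNA of caudal fins was hybridised to 24 Affymetrix zebrafish arrays, 3 in each of 8 groups. Wild-type fish had received streptozocin at 350 mg/kg, which kills the pancreatic beta cells that make insulin, on days from 1 to 19 and had then spent 60 days without the drug (metabolic memory fish), or had received citrate buffer (control fish, called untreated in the design text). Fins were sampled at 0, 12, 24 and 48 h after amputation in both arms. The labels do not give the age of the fish. The labels name 15 fins and triplicate samples for each time, and whether the 3 samples came from separate fish is not given. Metabolic memory is the name for effects that outlast a period of high blood glucose, and blood glucose itself was not measured in these files.

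Cytochromes P450 insert oxygen into lipophilic compounds with electrons from a reductase, and aldehyde dehydrogenases oxidise the aldehydes that such reactions and amino acid breakdown produce. Sulfotransferases and glucuronosyltransferases then attach a sulfate or a glucuronic acid, which makes the product soluble enough for export. Some P450s act on foreign chemicals, and others make or break down hormones, bile acids, vitamin D and retinoids. In fish the cyp1 genes are induced through the aryl hydrocarbon receptor, and skin and fin epithelium are in direct contact with the water.

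Correlations between arrays were 0.989 to 0.998 within groups and no lower than 0.921 over any pair. Spiked hybridisation controls were brighter on the arrays of the earlier times (0 and 12 h, group means 10.12 to 10.18) than on the later ones (24 and 48 h, 9.69 to 9.82), which cannot be told apart from time when 24 or 48 h is set against 0 h and in the steps from 12 to 24 h. Changes are given as log2 differences ± standard error from limma with Benjamini-Hochberg adjusted p over 10140 probe sets, called at an adjusted p under 0.05, and a log2 difference of 1 is a 2-fold difference. The number of arrays limits the precision. In a tissue sample, fewer cells of a type and less RNA per cell cannot be told apart. Should the 3 samples of a group share fish, the p values would reflect technical spread alone.

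At 12 h after amputation 17 members were lower and 7 higher in control fins than at 0 h, together 77.4% of the members, and 7 were not called. Over all probe sets tested 68.5% were called, 32.5% as lower and 36% as higher. The median change of the members was -0.37, against 0.02 over all probe sets tested. In memory fins at 12 h, 18 members were lower and 6 higher, with a median of -0.69, where 69.6% of all probe sets were called, 34% lower and 35.6% higher. The members called lower in both arms at 12 h numbered 16, of 17 in control and 18 in memory fins, and those called higher in both numbered 3, of 7 and 6. Of all probe sets tested, 26.1% were lower and 28.4% higher in both arms at 12 h. Among those lower in control fins 80.3% were also lower in memory fins, and among those lower in memory fins 76.7% were also lower in control fins. The probe sets higher in both arms numbered 2878, of 3654 in control and 3613 in memory fins. No member was called in opposite directions in the arms at 12, 24 or 48 h, as were 1.55%, 0.207% and 0.306% of all probe sets. Markers of other cell types also differed between 12 and 0 h. Of 24 epidermal genes 14 were lower and 5 higher in control fins, with array means of 11.5 to 11.6 against 12.1 at 0 h, while 10 were lower and 10 higher in memory fins, with 11.7 to 11.9 against 12.0 to 12.1. Of 6 tested endothelial genes 4 were lower in control fins (5.40 to 5.56 against 6.17 to 6.38) and 3 in memory fins, and of 4 tested pigment cell genes 3 were lower and 1 higher in each arm. Of 19 neutrophil and macrophage genes 9 were lower and 7 higher in control fins and 9 lower and 8 higher in memory fins. The 1 blood gene that passed the filter rose by 3.17 in control and by 2.16 in memory fins. Their part in the members' changes was not tested.

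By 48 h the counts were closer to even. In control fins 15 members were lower and 9 higher at 24 h (background 68.4%, with 31.6% lower and 36.8% higher), and 12 were lower and 11 higher at 48 h (background 69.9%, with 32.5% lower and 37.5% higher). In memory fins 16 were lower and 5 higher at 24 h (background 68.3%, with 31.5% lower and 36.7% higher), and 12 were lower and 8 higher at 48 h (background 69.8%, with 32% lower and 37.8% higher). The median change moved from -0.23 at 24 h to -0.03 at 48 h in control fins and from -0.33 to -0.20 in memory fins. Comparisons with 0 h within an arm share the same 0 h arrays. Between 12 and 24 h 9 members rose and 0 fell in control fins (background 20.1%, with 11.2% higher and 8.89% lower), and 9 rose and 2 fell in memory fins (background 39.6%, with 22.2% higher and 17.5% lower). Between 24 and 48 h 11 members rose and 1 fell in control fins (background 30.9%, with 15% higher and 15.9% lower), and 10 rose and 1 fell in memory fins (background 27.4%, with 14.4% higher and 13.1% lower).

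The counts describe genes that partly passed the filter through 1 time or 1 arm. The genes cyp1a and cyp1c1 reached 4 on 6 arrays each, all at 0 h, sult1st4 did so on 4 arrays, also at 0 h, cyp24a1 on 4 arrays, all of memory fins, and cyp3c3 on 3, all of memory fins at 12 h. The gene cyp2r1 reached 4 only at 0 and 48 h, cyp8b1.1 on no array at 12 h, and cyp27c1 at 0 h in control fins only. Such genes were bound or favoured to differ in that direction by the filter, so their changes are a description and support nothing. In part this also holds for aldh16a1, cyp27a1.4 and ugt2a1, which did not reach 4 in every group either. Of the 31 members, 20 reached 4 in every group, a subset added after seeing the data. Among those 11 were lower and 5 higher in control fins at 12 h (background over all probe sets tested 32.5% lower and 36% higher). In memory fins 13 were lower and 3 higher (background 34% lower and 35.6% higher). The share among all probe sets that reach 4 in every group is not given here, so these counts have no matched background. The 36 genes that did not pass had mean log2 signals of 1.52 to 3.75, and 1 of them, the brain aromatase gene cyp19a1b, reached 4 on 1 array. The heat map of the 31 genes by arm and time shows blue in both arms for the cyp1, cyp8b1 and sult2 genes and red for aldh18a1, cyp20a1 and cyp27c1.

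**Figure D1:**
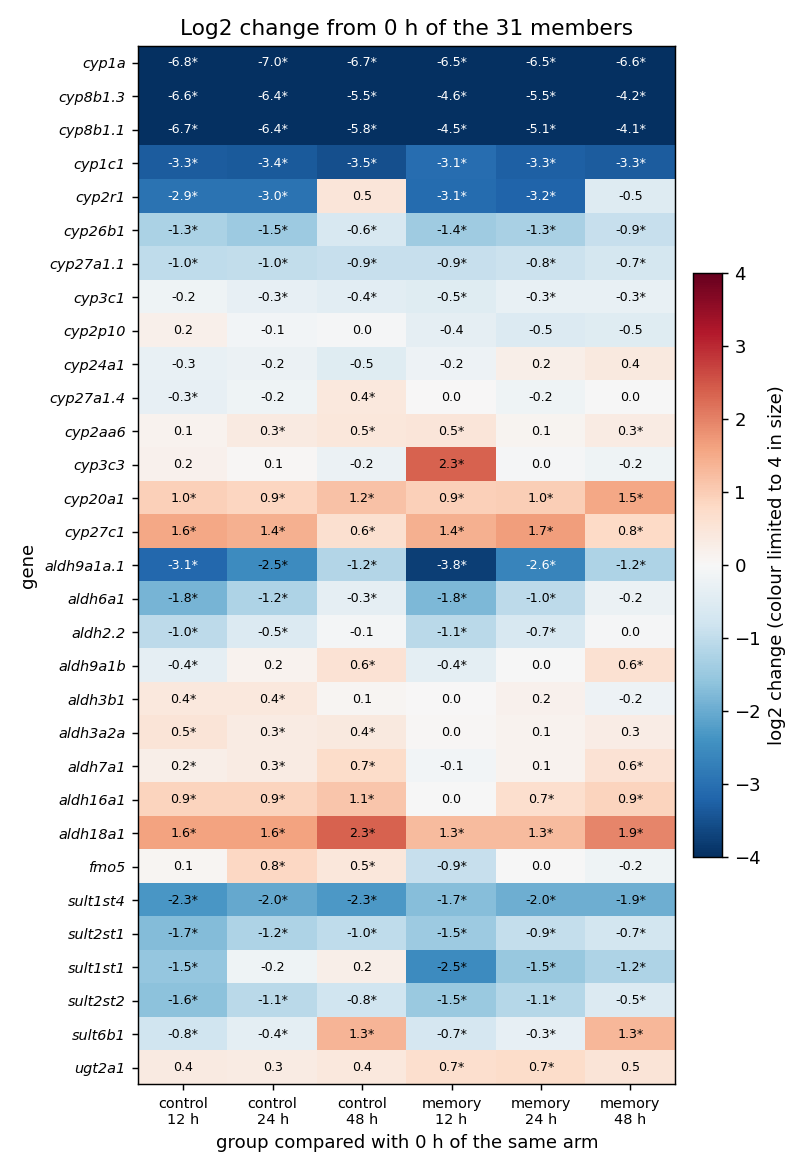
Log2 change from 0 h of the same arm for 31 genes (rows), in control and memory fins at 12, 24 and 48 h (columns), with blue for lower, red for higher (colours limited at a size of 4) and an asterisk for a limma Benjamini-Hochberg adjusted p under 0.05. The deepest blue belongs to cyp1a, whose changes run from -6.49 to -7.01, and to cyp8b1.1 and cyp8b1.3.

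Both cyp1 members fell to a low signal and stayed there. The gene cyp1a encodes the monooxygenase of polycyclic aromatic hydrocarbons that serves as the standard read-out of aryl hydrocarbon receptor activity in fish. Its log2 signal at 0 h was 8.99, 9.13 and 9.18 in control fins and 8.61, 8.59 and 8.48 in memory fins. The control fins read 2.04, 1.98 and 2.86 at 12 h, 2.19, 2.04 and 2.03 at 24 h, and 2.78, 2.2 and 2.11 at 48 h. The memory fins read 2.12, 2.06 and 2.04, then 2.12, 2.03 and 1.98, and finally 1.98, 1.95 and 1.97. The 6 arrays at 0 h thus lay between 8.48 and 9.18, and the 18 later arrays between 1.95 and 2.86, inside the span of means of the family genes that did not pass the filter. The difference at 12 h was -6.81 ± 0.18 in control fins and -6.49 ± 0.18 in memory fins. Since the gene passed the filter through its arrays at 0 h and later read at the level of genes that did not pass, the values describe the fall with no test, and its size below that level is not measured.

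The second member of the subfamily, cyp1c1, which is also induced by aryl hydrocarbon receptor ligands in fish, went the same way from a lower start. Control fins read 7.0, 6.72 and 6.49 at 0 h, and memory fins 6.85, 6.85 and 6.00. At 12 h the control fins read 3.37, 3.39 and 3.43 and the memory fins 3.61, 3.41 and 3.53. No array of a later time reached those at 0 h in either arm, and the change at 12, 24 and 48 h was -3.34, -3.37 and -3.53 in control fins and -3.05, -3.27 and -3.32 in memory fins. The standard error of each was 0.16. The same limits hold as for cyp1a, with all later arrays between 3.11 and 3.61. The other probe sets of cyp1c1 did not pass the filter. They read at most 1.73 and 2.17 on any array, 0 h included, and so did not show this fall.

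Of the receptor side, transcript of ahr2, whose protein mediates most dioxin toxicity in zebrafish, fell by 1.22 ± 0.10 in control fins (adjusted p = 1.42e-09) and by 1.05 ± 0.10 in memory fins (adjusted p = 1.36e-08) at 12 h. Transcript of tiparp, a target and repressor of that receptor, rose by 1.14 ± 0.31 in control fins (adjusted p = 0.00304), and its change of 0.58 ± 0.31 in memory fins was not called (adjusted p = 0.107). The list of xenobiotic and lipid sensing receptors and their cofactors had 7 of 20 genes on the arrays tested. Of those, 5 were lower and 2 higher in control fins at 12 h (background 32.5% lower and 36% higher), and 4 lower and 1 higher in memory fins (34% lower and 35.6% higher). The nfe2l2a transcript, which encodes the antioxidant regulator Nrf2, fell by 1.31 ± 0.13 in control fins (adjusted p = 1.18e-08) and by 0.63 ± 0.13 in memory fins (adjusted p = 1.79e-04). That of keap1a, whose protein holds Nrf2 back, rose by 1.36 ± 0.41 (adjusted p = 0.00577) and by 1.24 ± 0.41 (adjusted p = 0.0107). Protein levels and activity were not measured.

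Falls also occurred in cyp8b1.1 and cyp8b1.3, copies of the sterol 12-alpha-hydroxylase gene, whose mammalian enzyme sets the share of cholic acid among bile acids. The copies lie next to each other with 0 protein-coding genes between them, the identifiers of their probe sets name the same transcript cluster, and whether the probes tell the copies apart was not tested. Another probe set annotated to cyp8b1.1 did not pass the filter. It read at most 3.58 on any array, 0 h included, and so did not show this fall. The log2 signal of cyp8b1.1 at 0 h was 10.05, 9.84 and 9.15 in control fins and 7.48, 9.08 and 7.51 in memory fins. At 12 h it was 2.69, 2.63 and 3.62 in control fins and 3.79, 3.35 and 3.48 in memory fins. All 3 memory arrays at 0 h lay below all 3 control arrays, and all 6 lay above the 12 h arrays. The 12 h arrays lay at about the level of family genes that did not pass the filter, so the size of the fall there is not exact. The change was -6.70 ± 0.47 in control fins and -4.49 ± 0.47 in memory fins. No array at 12 h reached the filter level of 4, so the filter favoured a fall, which is given without a test.

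For cyp8b1.3 the control fins read 11.87, 12.03 and 11.21 at 0 h and 4.81, 4.10 and 6.51 at 12 h. The memory fins read 10.20, 11.19 and 9.76 at 0 h and 6.49, 5.47 and 5.28 at 12 h. Later arrays spread widely, with 5.12, 4.04 and 6.86 in control fins at 24 h. Of the 19 group standard deviations over 0.5 among the 31 genes, 10 came from this pair, where the median standard deviation was 0.15. Those of the pair include memory fins at 0 h, with 0.91 for cyp8b1.1 and 0.73 for cyp8b1.3. The change at 12 h was -6.57 ± 0.65 in control fins (limma Benjamini-Hochberg adjusted p = 1.59e-08) and -4.63 ± 0.65 in memory fins (adjusted p = 2.24e-06). At 48 h cyp8b1.3 was still lower by -5.46 ± 0.65 and -4.19 ± 0.65, and cyp8b1.1 by -5.81 ± 0.47 and -4.08 ± 0.47.

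Because cyp8b1 acts in the liver, liver markers were read beside it. Of 17 liver genes on the arrays 16 did not pass the filter. The one that did, rbp4 of retinol transport, had a log2 signal of 13.1 to 13.2 in control fins at 0 h and 8.21 to 8.71 at 12 h. In memory fins it was 13.4 to 13.6 at 0 h, above control fins, where cyp8b1.1 was below them, and 8.70 to 9.21 at 12 h. Whether rbp4 stands for liver tissue here, and its part in the cyp8b1 values, was not tested. Of 10 intestine genes 8 did not pass. The plot of 6 genes by array shows the cyp1 pair and the cyp8b1 pair high at 0 h and low at every later time, and cyp2r1 high again at 48 h.

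**Figure D2:**
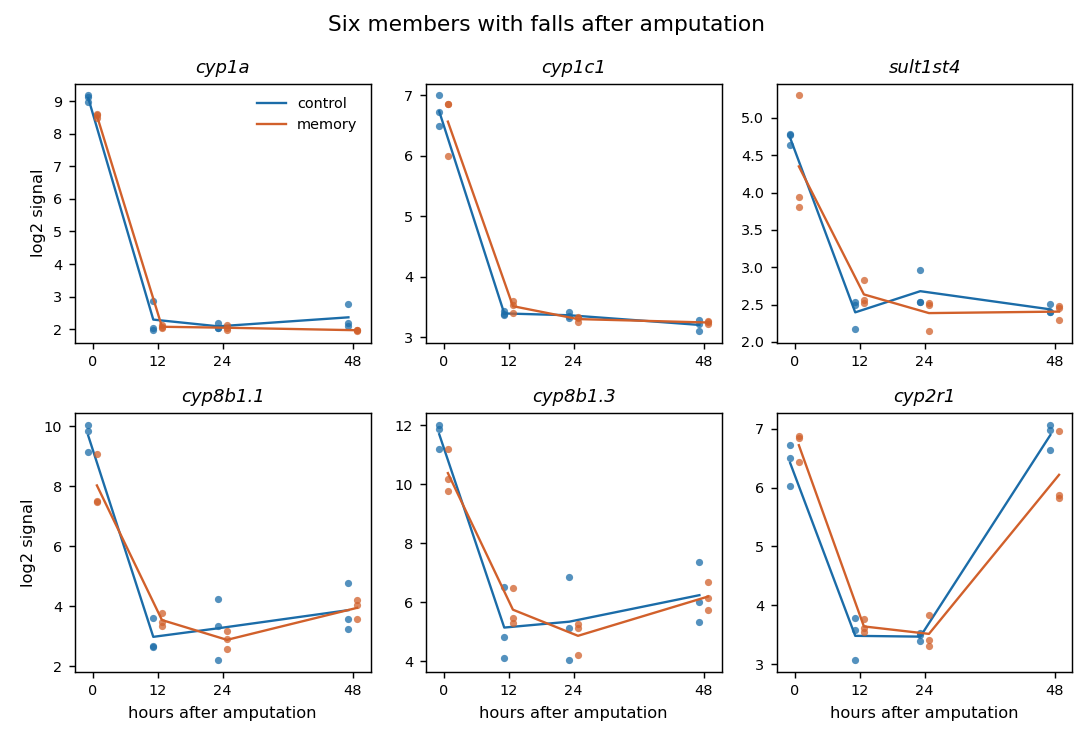
Log2 signal against hours after amputation for cyp1a, cyp1c1, sult1st4, cyp8b1.1, cyp8b1.3 and cyp2r1, each panel with its own axis range that does not start at 0. Points are single arrays, 3 per arm and time, blue for control and orange for memory fins, and lines join the group means. The cyp1a arrays at 0 h lie between 8.48 and 9.18 and all later ones between 1.95 and 2.86, and cyp2r1 is low at 12 and 24 h only.

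Vitamin D is handled by cyp2r1 and cyp24a1 among the members. The gene cyp2r1 encodes the 25-hydroxylase that starts vitamin D activation. Its signal in control fins was 6.72, 6.50 and 6.03 at 0 h, then 3.07, 3.58 and 3.79 at 12 h, then 3.52, 3.49 and 3.39 at 24 h, and 7.07, 6.64 and 6.97 at 48 h. In memory fins it was 6.44, 6.88 and 6.84, then 3.76, 3.54 and 3.62, then 3.30, 3.83 and 3.41, and 5.82, 5.87 and 6.96 at 48 h. It was low on every array at 12 and 24 h and high on every array at 0 and 48 h, and only the latter carried it past the filter. The change at 12 h was -2.94 ± 0.25 in control and -3.08 ± 0.25 in memory fins, and the rise from 24 to 48 h was 3.43 ± 0.25 and 2.70 ± 0.25. The filter favoured both directions, so these values are given without a test. At 48 h the level of cyp2r1 was not called different from 0 h in either arm (0.47 ± 0.25, limma Benjamini-Hochberg adjusted p = 0.0955, and -0.50 ± 0.25, adjusted p = 0.0774).

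Markers of fin and bone also had a lower mean at 12 h than at 0 h. Unlike that of cyp2r1, their mean was higher at 24 h than at 12 h. At 48 h it lay above 0 h in both arms. The mean log2 signal of the 15 tested genes of 18 on the arrays was 9.80 to 9.94 per control array at 0 h, 7.75 to 8.06 at 12 h, 8.78 to 8.86 at 24 h and 11.3 to 11.5 at 48 h. In memory fins it was 9.83 to 9.98, 7.57 to 8.04, 8.68 to 8.99 and 11.2 to 11.3. Their part in the cyp2r1 result was not tested. The gene cyp24a1, whose 24-hydroxylase breaks active vitamin D down, had no called change from 0 h in either arm.

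Genes of sterols and retinoids differed in direction. For cyp27a1.1, a sterol 27-hydroxylase gene, the signal fell in both arms by similar amounts, -1.03 ± 0.22 at 12 h in control (limma Benjamini-Hochberg adjusted p = 3.08e-04) and -0.91 ± 0.22 in memory fins (adjusted p = 9.85e-04). The related cyp27a1.4 rose at 48 h in control fins, by 0.42 ± 0.12 (adjusted p = 0.00322), and was not called in memory fins (-0.01 ± 0.12, adjusted p = 0.919), where its second probe set was lower by -0.49 (adjusted p = 0.0257). The gene cyp26b1, which breaks down retinoic acid, read 11.11, 11.33 and 11.22 at 0 h and 10.27, 9.88 and 9.75 at 12 h in control fins. Its change at 12, 24 and 48 h was -1.26 ± 0.18, -1.46 ± 0.18 and -0.64 ± 0.18 in control fins and -1.42 ± 0.18, -1.31 ± 0.18 and -0.93 ± 0.18 in memory fins. The largest adjusted p of those 6 was 0.00355. A dim probe set of cyp26b1 was not called at 12 h in control fins (0.02 ± 0.18, adjusted p = 0.935), and 2 others fell. The dim one was lower at 24 and 48 h in control fins (-0.70 and -0.50, adjusted p = 0.00163 and 0.0176). In memory fins it was lower at 12, 24 and 48 h (-0.89, -1.28 and -0.97).

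The gene cyp27c1, whose zebrafish enzyme turns vitamin A1 into vitamin A2, rose at 12 h. Control fins read 4.05, 3.65 and 3.70 at 0 h, then 5.34, 5.46 and 5.27 at 12 h, then 5.24, 5.38 and 5.02 at 24 h, and 4.36, 4.47 and 4.49 at 48 h. Memory fins read 3.67, 3.66 and 3.66, then 4.99, 5.17 and 5.08, then 5.31, 5.34 and 5.32, and then 4.49, 4.47 and 4.40. All later arrays lay above those at 0 h. The rise at 12 h was 1.56 ± 0.10 in control and 1.42 ± 0.10 in memory fins. At 0 h only the control array at 4.05 reached the filter level of 4, so the filter favoured a rise, which is given without a test. From 24 to 48 h the signal fell by 0.77 ± 0.10 in control (limma Benjamini-Hochberg adjusted p = 6.31e-06) and 0.87 ± 0.10 in memory fins (adjusted p = 1.59e-06).

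Of the other P450s, cyp20a1, an orphan P450 with no settled substrate, rose by 0.97 ± 0.10 at 12 h in control fins (limma Benjamini-Hochberg adjusted p = 2.56e-08) and by 0.94 ± 0.10 in memory fins (adjusted p = 3.62e-08), reaching 1.17 ± 0.10 and 1.53 ± 0.10 at 48 h. The fish CYP3 gene cyp3c1 read 9.0, 8.99 and 8.93 in control fins at 0 h and 8.42, 8.58 and 8.61 at 48 h, a fall of -0.44 ± 0.10 (adjusted p = 3.92e-04). Of the fish CYP2 genes cyp2aa6 rose by 0.46 ± 0.11 at 48 h in control fins (adjusted p = 0.0013), and cyp2p10 was called in no comparison with 0 h.

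The 9 aldehyde dehydrogenases split into falls and rises. The largest fall was that of aldh9a1a.1, of the enzyme family that makes the carnitine precursor from trimethylaminobutyraldehyde. Control fins read 11.0, 10.93 and 11.11 at 0 h, then 8.09, 7.68 and 7.86 at 12 h, then 8.54, 8.45 and 8.49 at 24 h, and 9.88, 9.80 and 9.85 at 48 h. Memory fins read 11.04, 11.03 and 10.90, then 7.52, 7.18 and 6.98, then 8.35, 8.47 and 8.24, and 9.92, 9.59 and 9.74. No array of a later time reached those at 0 h. The change was -3.13 ± 0.12 at 12 h and -1.17 ± 0.12 at 48 h in control (limma Benjamini-Hochberg adjusted p = 9.53e-15 and 4.39e-08) and -3.76 ± 0.12 and -1.24 ± 0.12 in memory fins (adjusted p = 7.97e-16 and 1.81e-08).

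Genes of valine and acetaldehyde oxidation fell less and were near their level at 0 h by 48 h. For aldh6a1, the methylmalonate semialdehyde dehydrogenase of valine breakdown, the signal fell by 1.84 ± 0.11 at 12 h and 1.24 ± 0.11 at 24 h in control fins and by 1.80 ± 0.11 and 1.04 ± 0.11 in memory fins (limma Benjamini-Hochberg adjusted p of 8.08e-08 or lower). At 48 h its change was -0.35 ± 0.11 in control (adjusted p = 0.0113, rising to 0.0777 when control 0 h replicate 1 was left out and 0.0589 when control 48 h replicate 3 was) and -0.24 ± 0.11 in memory fins (adjusted p = 0.0657). For aldh2.2, a mitochondrial acetaldehyde dehydrogenase gene, the fall was 1.04 ± 0.11 and 1.07 ± 0.11 at 12 h, and the change at 48 h was -0.09 ± 0.11 and -0.04 ± 0.11, neither of them called (adjusted p = 0.494 and 0.768).

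In the other direction, aldh18a1 encodes pyrroline-5-carboxylate synthase, which makes proline from glutamate. Its control signal was 7.17, 6.98 and 7.12 at 0 h, then 8.51, 8.60 and 8.97 at 12 h, then 8.81, 8.73 and 8.53 at 24 h, and 9.57, 9.56 and 9.19 at 48 h. The memory signal was 7.58, 7.11 and 7.26, then 8.54, 8.58 and 8.65, then 8.72, 8.52 and 8.55, and 9.46, 9.03 and 9.30. Every later array lay above every array at 0 h of the same arm. The rise at 48 h was 2.35 ± 0.14 in control (limma Benjamini-Hochberg adjusted p = 1.16e-11) and 1.94 ± 0.14 in memory fins (adjusted p = 2.20e-10). The lysine breakdown gene aldh7a1 rose by 0.74 ± 0.09 and 0.59 ± 0.09 at 48 h (adjusted p = 1.74e-07 and 3.89e-06), and aldh9a1b by 0.59 ± 0.15 and 0.60 ± 0.15 (adjusted p = 0.00166 and 0.00144).

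The plot of 6 time courses sets the members that were lowest at 12 h beside aldh18a1 and cyp27c1, which rose. The fatty aldehyde dehydrogenase gene aldh3a2a read 6.57, 6.71 and 6.64 in control fins at 0 h and 7.29, 6.89 and 7.31 at 12 h, a rise of 0.52 ± 0.14 (limma Benjamini-Hochberg adjusted p = 0.00307), where memory fins showed 0.03 ± 0.14 (adjusted p = 0.853). For aldh3b1 the change in control fins at 12 h was 0.42 ± 0.15 (adjusted p = 0.0215). Its call was lost without control 0 h replicate 2 or 3 or without control 12 h replicate 2, where the change was 0.27 (adjusted p = 0.144).

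**Figure D3:**
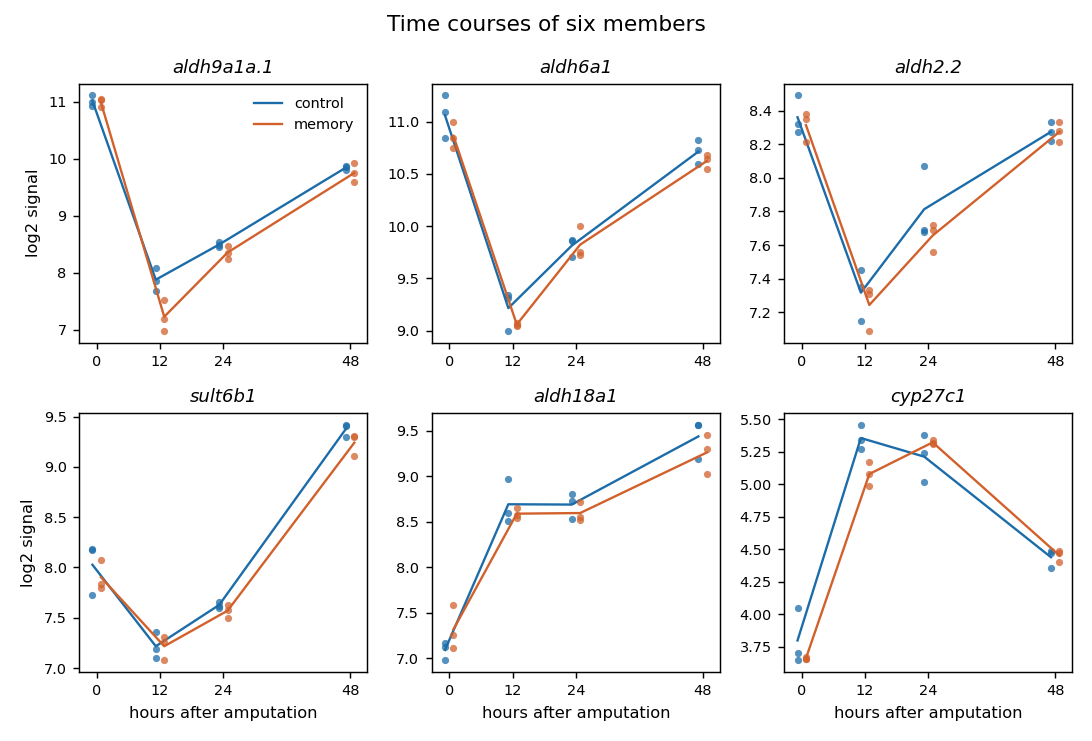
Log2 signal against hours after amputation for aldh9a1a.1, aldh6a1, aldh2.2, sult6b1, aldh18a1 and cyp27c1, each panel with its own axis range that does not start at 0. Points are single arrays, 3 per arm and time, blue for control and orange for memory fins, and lines join the group means. The signals of aldh9a1a.1, aldh6a1 and aldh2.2 dip at 12 h, sult6b1 ends above its level at 0 h, and aldh18a1 rises to 9.03 to 9.57 at 48 h.

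All 5 sulfotransferase genes were lower at 12 h in both arms, where 32.5% of all probe sets were lower in control and 34% in memory fins. Their median change was -1.64 in control and -1.5 in memory fins, but they separated later. This count and these medians include sult1st4, which the filter favoured to fall. For sult1st4, a phenol-type sulfotransferase gene, control fins read 4.77, 4.78 and 4.64 at 0 h and 2.17, 2.53 and 2.49 at 12 h, and memory fins 3.81, 5.30 and 3.94 and then 2.56, 2.52 and 2.83. It stayed low, with -2.29 ± 0.25 in control and -1.94 ± 0.25 in memory fins at 48 h. It passed the filter only through arrays at 0 h and later lay inside the span of means of the family genes that did not pass, so these values describe it with no test.

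The hydroxysteroid sulfotransferase genes sult2st1 and sult2st2, neighbours with 0 protein-coding genes between them, moved together and partly back. The change of sult2st1 at 12 and 48 h was -1.73 ± 0.17 and -1.02 ± 0.17 in control fins and -1.47 ± 0.17 and -0.75 ± 0.17 in memory fins. That of sult2st2 was -1.64 ± 0.16 and -0.80 ± 0.16 in control fins and -1.5 ± 0.16 and -0.54 ± 0.16 in memory fins. The largest limma Benjamini-Hochberg adjusted p among these 8 values was 0.00426. Whether probes of such near neighbours pick up both transcripts was not tested.

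The gene sult6b1 went down and then up. Control fins read 8.18, 7.73 and 8.17 at 0 h, then 7.10, 7.36 and 7.19 at 12 h, then 7.60, 7.62 and 7.66 at 24 h, and 9.30, 9.42 and 9.41 at 48 h. Memory fins read 8.07, 7.80 and 7.84, then 7.31, 7.26 and 7.08, then 7.50, 7.63 and 7.58, and 9.30, 9.11 and 9.31. At 48 h all 6 arrays lay above all 6 at 0 h, by 1.35 ± 0.11 in control (limma Benjamini-Hochberg adjusted p = 1.35e-09) and 1.33 ± 0.11 in memory fins (adjusted p = 1.63e-09).

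The phenol sulfotransferase gene sult1st1 was not called different from 0 h in control fins at 24 and 48 h and was lower at both times in memory fins. Control fins read 6.88, 6.54 and 6.34 at 0 h, then 4.91, 5.47 and 4.77 at 12 h, then 6.55, 6.56 and 6.12 at 24 h, and 6.59, 6.87 and 7.03 at 48 h. Memory fins read 7.38, 6.91 and 7.43, then 5.36, 4.85 and 3.99, then 5.85, 5.52 and 5.81, and 5.77, 6.11 and 6.18. The fall at 12 h was -1.54 ± 0.26 in control (limma Benjamini-Hochberg adjusted p = 2.37e-05) and -2.51 ± 0.26 in memory fins (adjusted p = 3.03e-08). At 48 h control fins were at 0.24 ± 0.26 from 0 h (adjusted p = 0.413) and memory fins at -1.22 ± 0.26 (adjusted p = 3.09e-04), and the difference of these 2 changes was -1.46 (adjusted p = 0.0282). That call was lost without control 0 h replicate 2 or 3, memory 0 h replicate 1 or 3, control 48 h replicate 2 or 3, or memory 48 h replicate 1 or 2, at adjusted p of 0.0524 to 0.0639. The value draws on a higher memory mean at 0 h (7.24 against 6.59 in control fins) and a lower one at 48 h (6.02 against 6.83). Neither of these differences between the arms was called.

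Of the remaining conjugation and oxidation genes, ugt2a1 of glucuronidation rose by 0.66 ± 0.27 in memory fins at 12 h (limma Benjamini-Hochberg adjusted p = 0.0332), lost without memory 0 h replicate 2 or 3 or memory 12 h replicate 1, where the adjusted p was 0.0797, 0.0773 and 0.168. In control fins its change was 0.35 ± 0.27 (adjusted p = 0.245). No memory array at 0 h reached the filter level of 4 for ugt2a1, which favoured a rise. A brighter probe set annotated to several ugt2a genes, not counted among the 31, rose by 0.71 ± 0.13 in control (adjusted p = 4.55e-05) and 0.97 ± 0.13 in memory fins (adjusted p = 7.64e-07). The flavin monooxygenase gene fmo5 rose in control fins at 24 h by 0.83 ± 0.19 (adjusted p = 4.75e-04) and fell in memory fins at 12 h by 0.93 ± 0.19 (adjusted p = 1.58e-04).

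Enzymes that supply the donors of conjugation were read beside the transferases. Among 11 tested genes of conjugation cofactors at 12 h in control fins, 5 were higher and 4 lower (background 36% higher and 32.5% lower). In memory fins 5 were higher and 3 lower (background 35.6% higher and 34% lower). The UDP-glucose dehydrogenase gene ugdh, which makes the glucuronic acid donor, rose by 2.67 ± 0.15 in control (adjusted p = 2.80e-12) and 3.26 ± 0.15 in memory fins (adjusted p = 1.35e-13). Transcript of papss1, which makes the sulfate donor, rose by 2.18 ± 0.12 (adjusted p = 1.33e-12) and 2.62 ± 0.12 (adjusted p = 8.57e-14). The steroid sulfatase gene sts, which removes sulfate, fell by 2.11 ± 0.26 (adjusted p = 4.78e-07) and 1.36 ± 0.26 (adjusted p = 1.14e-04).

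Other phase I and II enzymes, such as esterases, quinone reductase and glutathione transferases, formed a list of 18 tested genes. In control fins at 12 h 14 were lower and 1 higher with a median of -1.25 (background 32.5% lower and 36% higher). In memory fins 17 were lower and 1 higher with a median of -1.62 (background 34% lower and 35.6% higher). The carboxylesterase gene ces2b changed by -3.06 ± 0.13 and -3.22 ± 0.13 (adjusted p = 4.89e-14 and 2.63e-14) and the quinone reductase gene nqo1 by -2.18 ± 0.16 and -2.41 ± 0.16 (adjusted p = 1.52e-10 and 3.13e-11). At 12 h 14 of the 18 were lower in memory than in control fins and none was higher (background 20.7% lower and 15.5% higher). The median was -0.44 against -0.02 over all probe sets tested. There mao, the monoamine oxidase gene, was lower by 1.24 ± 0.24 (adjusted p = 4.02e-04) and the glutathione transferase gene gstt1b by 1.63 ± 0.16 (adjusted p = 2.59e-07).

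Electron donors and haem supply, with 12 tested genes, had 5 higher and 2 lower in control and 7 higher and 4 lower in memory fins at 12 h. The background was 36% higher and 32.5% lower in control and 35.6% higher and 34% lower in memory fins. The cytochrome b5 gene cyb5b rose by 1.79 ± 0.22 (adjusted p = 3.52e-07) and 2.58 ± 0.22 (adjusted p = 1.56e-09). The haem synthesis gene cpox rose by 1.84 ± 0.10 in control fins (adjusted p = 1.44e-12) and by 0.35 ± 0.10 in memory fins (adjusted p = 0.00374). Of 4 tested efflux transporters 1 was higher and 2 lower in control fins at 12 h, and 1 higher and 1 lower in memory fins, against the same background. Transcript of abcc4 rose by 1.61 ± 0.14 (adjusted p = 2.00e-09) and 2.13 ± 0.14 (adjusted p = 2.53e-11), and abcb5 fell by 1.45 ± 0.26 in control fins (adjusted p = 4.43e-05).

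Memory and control fins were compared at each time because the drug lay 60 days back. At 0 h 1 of 31 members was called, where 5.52% of all probe sets were (3.62% higher and 1.9% lower), and it was cyp8b1.1, lower in memory fins by 1.65 ± 0.47 (limma Benjamini-Hochberg adjusted p = 0.0442). Leaving out control 0 h replicate 1 or 2 or memory 0 h replicate 1 or 3 ended the call, at adjusted p of 0.140, 0.121, 0.148 and 0.154. It was lost too without the filter, with an intensity trend, with the replicate block and in a fit of the 2 groups alone, with adjusted p of 0.0717, 0.0603, 0.0532 and 0.107. Its copy cyp8b1.3 was at -1.32 ± 0.65 (adjusted p = 0.257), and cyp1a at -0.54 ± 0.18 (adjusted p = 0.0749).

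At 12 h 2 members were higher and 7 lower in memory fins, 29.0% of the members, with 36.2% of all probe sets called, 15.5% higher and 20.7% lower. The count fell to 5 without control 12 h replicate 1 or 2 and to 4 without memory 12 h replicate 3. The largest difference was that of the fish CYP3 gene cyp3c3. Its control signal at 12 h was 3.83, 3.33 and 3.43, and its memory signal 5.41, 5.84 and 5.65. At every other time it lay between 2.97 and 3.58 in both arms, so the 3 memory arrays at 12 h stand apart. The difference was 2.11 ± 0.13, and since those 3 arrays carried the gene past the filter, it had to differ and is given without a test. Its neighbour cyp3c1, with 1 protein-coding gene between them, was at -0.26 ± 0.10 in the same comparison (limma Benjamini-Hochberg adjusted p = 0.0406), a call lost without any of control 12 h replicates 1 and 2 and memory 12 h replicates 1 and 3, with adjusted p up to 0.188.

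Also at 12 h, aldh9a1a.1 was lower in memory fins by 0.65 ± 0.12 (limma Benjamini-Hochberg adjusted p = 3.65e-04) and aldh3a2a by 0.56 ± 0.14 (adjusted p = 0.00476). All 3 memory arrays of aldh9a1a.1, 7.52, 7.18 and 6.98, lay below the control arrays at 8.09, 7.68 and 7.86. The values of aldh16a1 were 4.53, 3.83 and 4.96 in control and 3.79, 3.52 and 4.10 in memory fins, which overlapped. Its difference of -0.64 ± 0.21 (adjusted p = 0.0200) fell to -0.38 without control 12 h replicate 3 (adjusted p = 0.141) and was also not called without control 12 h replicate 1 or memory 12 h replicate 2 (adjusted p = 0.0634 and 0.107). For fmo5 it was -0.59 ± 0.19 (adjusted p = 0.0173), dropping to -0.36 when control 12 h replicate 1 was left out (adjusted p = 0.136), and it was not called without memory 12 h replicate 3 (adjusted p = 0.0852). The other 3 called members, cyp27c1, cyp2aa6 and aldh3b1, were at -0.28 ± 0.10, 0.32 ± 0.11 and -0.48 ± 0.15 (adjusted p = 0.0405, 0.0353 and 0.0198). The call of cyp27c1 was lost without control 12 h replicate 1 or 2 or memory 12 h replicate 1 or 3, that of cyp2aa6 without control 12 h replicate 2 or 3 or memory 12 h replicate 1 or 3, and that of aldh3b1 without control 12 h replicate 2 or memory 12 h replicate 2 or 3, with adjusted p up to 0.140, 0.130 and 0.121. After quantile normalisation once more cyp27c1 was at -0.14 (adjusted p = 0.318). A fit of only the groups compared also lost the calls of aldh16a1, fmo5, cyp27c1, cyp2aa6, aldh3b1 and cyp3c1, at adjusted p of 0.0717 to 0.168.

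Cell markers differed between the arms at 12 h too, where 15.5% of all probe sets were higher and 20.7% lower in memory fins. Of 24 epidermal genes 12 were higher and 2 lower in memory fins, with array means of 11.7 to 11.9 against 11.5 to 11.6 in control fins. Of 19 neutrophil and macrophage genes 7 were higher and 1 lower, with array means of 8.36 to 8.41 against 7.81 to 7.88. Of 15 fin and bone genes 5 were lower, with 7.57 to 8.04 against 7.75 to 8.06. Their part in the differences of the members and of the other phase I and II enzymes was not tested. The neutrophil and macrophage means also differed at 0 h, at 8.21 to 8.34 in memory and 7.78 to 7.96 in control fins.

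At 24 h no member was called between the arms, in limma, where 3.38% of all probe sets were (1.48% higher and 1.9% lower), and 5 members had an unadjusted p under 0.05. At 48 h 1 was higher and 1 lower, against a background of 5.69% (2.75% higher and 2.94% lower). For cyp27a1.4 the control signal was 4.34, 4.86 and 4.65 and the memory signal 3.96, 3.79 and 4.04, a difference of -0.69 ± 0.12 (limma Benjamini-Hochberg adjusted p = 0.00210), and no memory array reached the control arrays. A second probe set gave -1.0 (adjusted p = 0.00437). The 2 probe sets differed at 12 h in memory fins, where the change from 0 h was 0.03 on the first and -1.43 on the second (adjusted p = 8.47e-07). The second was also lower in memory than in control fins at 12 h (-0.85, adjusted p = 0.00127) and 24 h (-0.80, adjusted p = 0.0226), where the first was not called. For cyp24a1 the signal was 3.13, 3.34 and 3.31 in control and 3.78, 4.52 and 4.17 in memory fins, a difference of 0.90 ± 0.23 (adjusted p = 0.0240). The gene passed the filter through memory arrays alone, which favours a higher memory value, so this call describes the values and supports nothing. It was also lost without control 48 h replicate 1 (0.103) or 2 (0.0669) or memory 48 h replicate 2 (0.136) or 3 (0.0688).

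Whether the memory effect at a later time differed from that at 0 h was tested as an interaction. At 12 h 2 members were higher and 4 lower (background 23.5%, with 9.08% higher and 14.4% lower). At 24 h none was called in limma, with 2 at an unadjusted p under 0.05 (background 2.5%, with 0.848% higher and 1.66% lower). At 48 h 1 was lower (background 4.38%, with 2.03% higher and 2.35% lower).

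Averaged over the 4 times, 7 members were called, 2 higher and 5 lower in memory fins, against a background of 32.8% (15.9% higher and 16.8% lower). The higher genes were cyp3c3 at 0.48 ± 0.07 and cyp24a1 at 0.39 ± 0.11, and the lower ones aldh3b1 at -0.30 ± 0.08, cyp1a at -0.30 ± 0.09, cyp27a1.4 at -0.27 ± 0.06 (-0.46 with the mean of its probe sets), aldh3a2a at -0.26 ± 0.07 and aldh9a1a.1 at -0.23 ± 0.06. For the 5 lower genes the limma Benjamini-Hochberg adjusted p was 0.0135 or lower. Both higher genes passed the filter only through memory arrays, which favours that direction, so their values are given without a test. For cyp1a the averaged value includes 12, 24 and 48 h, where all arrays read at the level of genes that did not pass, so it does not measure a difference at those times. For cyp3c3 the difference at 0, 24 and 48 h was -0.05, -0.15 and 0.01. The plot of 6 genes by arm shows this next to cyp27a1.4 and cyp24a1, which part at 48 h, and sult1st1, whose arms cross.

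**Figure D4:**
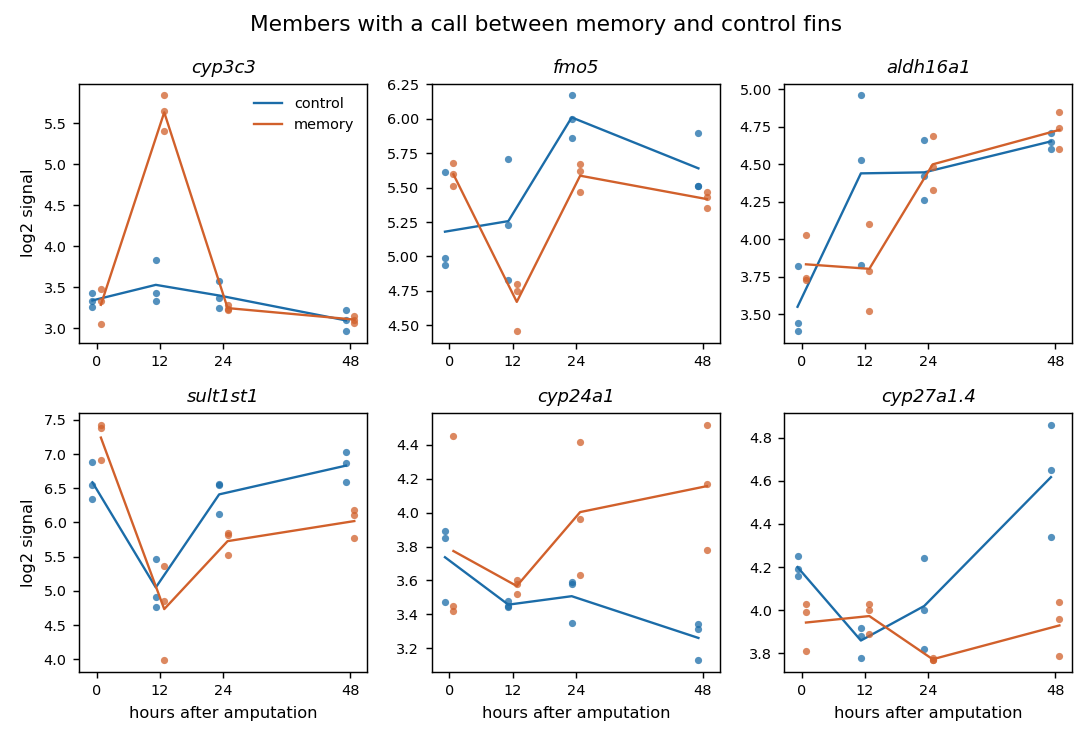
Log2 signal against hours after amputation for cyp3c3, fmo5, aldh16a1, sult1st1, cyp24a1 and cyp27a1.4, each panel with its own axis range that does not start at 0. Points are single arrays, 3 per arm and time, blue for control and orange for memory fins, and lines join the group means. In cyp3c3 the 3 memory arrays at 12 h lie between 5.41 and 5.84 and every other array lies below 4.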

How the data were processed

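Total RNA of zebrafish caudal fins was hybridised to 24 Affymetrix arrays, 3 per arm and time. The authors deposited log2 signals per probe set, which the submitters' processing notes credit to GCRMA and Partek, whose versions are not given in the sources used here, and the values carry no detection calls. Groups came from the labels. The arrays held 15617 probe sets, of which 115 are array controls and were not tested, and the 10140 with log2 of at least 4 on at least 3 arrays were tested with limma 3.58.1 in R 4.3.3 (1 mean per group over all 24 arrays, eBayes without trend, Benjamini-Hochberg adjustment, 18 comparisons). Symbols came from the platform annotation, where 10718 of 10937 annotated probe sets matched a RefSeq gene table (GRCz12tu), which was used only for names and neighbours. Members, lists, markers and tests were chosen with earlier results of these data known. Every member may be named; array values are given for cyp1 genes and for up to 4 called rises and falls per comparison whose arrays do not overlap, and up to 4 called genes per list. The fit was tested on simulated data. Alternatives were no filter, a filter at 6, an intensity trend, median centring, quantile normalisation, the replicate block, only the groups compared, a log2 change of 1, the mean of probe sets, and leaving out each array. Another pair was added after seeing the data, with a probe set of several ugt2a genes and with only members that reach 4 in every group.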

Additional observations from a re-analysis of the deposited data

Results flagged for a closer look

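The interaction term in limma, the memory effect at 12 h less that at 0 h, was called for 6 genes. These were 19.4% of the members, where 23.5% of all probe sets were called. The difference was 2.16 for cyp3c3 and 2.21 for cyp8b1.1 (Benjamini-Hochberg adjusted p = 0.0213), and it was -0.92 for aldh16a1, -0.35 for aldh7a1, -0.63 for aldh9a1a.1 and -1.0 for fmo5 (adjusted p = 0.00896). That of cyp3c3 was fixed by its choice, as it passed the filter only through memory arrays at 12 h, and it is given without a test. For cyp8b1.1 all 12 h arrays lay at about the level of genes that did not pass the filter, so the arms could hardly differ there. Its value draws on the lower memory signal at 0 h and does not measure a memory effect at 12 h. The size of the value is not exact. The call of cyp8b1.1 was lost without control 0 h replicate 1 or memory 0 h replicate 1 or 3, at adjusted p of 0.0503 to 0.0564. The call of aldh16a1 was lost without control 0 h replicate 1 or 2, memory 0 h replicate 1, control 12 h replicate 1 or 3, or memory 12 h replicate 2, at adjusted p up to 0.0772. That of aldh7a1 was lost without control 0 h replicate 1 or 2, memory 0 h replicate 2 or 3, control 12 h replicate 1 or 3, or any memory 12 h replicate, at adjusted p up to 0.1. The calls of aldh9a1a.1 and fmo5 were lost in the fit of only the groups compared, at adjusted p of 0.0649 and 0.0502. Those of aldh16a1 and aldh7a1 were lost there too (0.102 and 0.138), and also with arrays centred on their median (0.051 and 0.130). At 48 h the interaction of sult1st1 was -1.46, the value given with its time course.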

How the results depend on the processing

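The counts of called members stayed within 1.5 times of the value given in all 18 comparisons with median centring, quantile normalisation and the several-gene ugt2a probe set (added after seeing the data). With the filter at 6, which leaves 19 members, they were 15 at 48 h in control fins and 7 from 12 to 24 h in memory fins. They were 4 and 0 between the arms at 12 and 48 h, 3 and 1 in the interactions at 12 and 24 h, and 4 averaged. With a log2 change of at least 1 they were 13 and 11 in control fins and 13 and 10 in memory fins at 24 and 48 h, 1, 3, 2 and 3 for the steps, 1 and 0 between the arms at 12 and 48 h, 3 in the interaction at 12 h and 0 averaged. In a fit of only the groups compared they were 3 from 12 to 24 h in control fins, 0 and 3 between the arms at 0 and 12 h, and 2 and 1 in the interactions at 12 and 24 h. The count at 0 h was 0 without the filter, with intensity trend and with the replicate block. With the mean of probe sets it was 1 between the arms at 24 h and 2 in the interaction at 48 h. Among members that reach 4 in every group (added after seeing the data) it was 13 in memory fins at 24 h, 0 between the arms at 0 and 48 h, 3 in the interaction at 12 h and 3 averaged. Leaving out each array gave 21 to 23, 22 to 23 and 21 to 23 in control fins at 12, 24 and 48 h, 22 to 24, 20 to 21 and 18 to 22 in memory fins, and 6 to 9, 10 to 12, 9 to 11 and 11 to 11 for the steps. Between the arms it gave 0 to 2, 4 to 7, 0 to 0 and 1 to 2, in the interactions 4 to 7, 0 to 1 and 0 to 2, and averaged 7 to 8. Where a call was lost the cause was not tested. After group means were taken off, same-numbered arrays of different groups correlated at -0.225 to 0.37, with a median of 0.025 and 19 of 84 over 0.1. Whether the numbers pair samples is not settled by this, and the replicate block changed no other count by over 1.5 times. Leaving out a fibromodulin probe set could not be run, as 0 are on the array. Of 205 member calls 160 were kept under these alternatives where the gene was tested, leaving aside the log2 change of 1, the members that reach 4 in every group and, for genes it drops, the filter at 6. Signals near the floor and 3 arrays a group limit what can be called.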
